A study of Homo sapiens with 4 samples.

Results

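The genes described here are 9 NKX homeobox genes, namely *NKX2-1*, *NKX2-2*, *NKX2-3*, *NKX2-4*, *NKX2-5*, *NKX2-6*, *NKX2-8*, *NKX6-1*, and *NKX6-2*, of 20007 protein-coding genes in the GENCODE annotation of hg38. They were chosen by name, and the binding assigned to each gene was every peak that overlapped its gene body or the 20 kb on either side, called its window. Promoter peaks were those with a centre between 1000 bp upstream and 100 bp downstream of an annotated transcription start site. The data were peak lists from 4 CUT&RUN libraries of HSSY II, an SS18::SSX1-positive synovial sarcoma (SS) cell line. In CUT&RUN, a nuclease tethered to an antibody frees the chromatin fragments under the target protein, which are then sequenced. SS18::SSX and WDR5 were each profiled after 4 days with DMSO, the solvent control, and after 4 days with 2.5 μM MS67, a PROTAC that degrades WDR5, to ask how the binding of both proteins depends on WDR5. Every library came from 1000000 HSSY II cells mixed with 50000 mouse NIH-3T3 fibroblasts (5%) as a spike-in. These fibroblasts carried H2B-GFP, and for SS18::SSX an anti-GFP antibody was added. All values are from 1 cell line and 1 library per condition, and without replicates no difference could be tested.

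NKX proteins are homeodomain transcription factors that set regional and organ identity in the embryo, in the ventral neural tube, foregut, heart, and pancreas. Developmental regulators of this kind usually have CpG-rich loci that Polycomb complexes keep silent in cells of other lineages. SS18::SSX is the fusion oncoprotein of SS and joins the SWI/SNF (BAF) chromatin remodeler, which it brings to such CpG-rich, Polycomb-marked loci, while WDR5 is a core subunit of the KMT2 histone H3 lysine methyltransferases and sits mostly at active promoters.

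The following stretches of hg38 carry the binding that the results turn on, each written 5′ to 3′ on the minus strand, which is the coding strand of its gene, with every CG dinucleotide in capitals. The first is the whole WDR5 peak of DMSO-treated cells at the *NKX6-1* promoter, chr4:84499305-84499550, 246 bp that run from 258 to 13 bp upstream of the gene start. The second is the 151 bp around the summit of the SS18::SSX peak with the highest −log10 q at *NKX2-1*, chr14:36518554-36518704, in an intron 2445 to 2595 bp inside the gene. The third is the summit of the SS18::SSX peak farthest upstream of *NKX2-2*, chr20:21522980-21523130, which was shown because a second annotation places an *NKX2-2* start beside it. The fourth is a whole SS18::SSX peak inside *NKX2-4*, chr20:21396768-21396920, 153 bp with the highest GC content of all the peaks of the 9 windows. The last ones are from *NKX6-2*: the summit of the strongest SS18::SSX peak after MS67, chr10:132788960-132789110, and the summit of the DMSO peak with the highest −log10 q, chr10:132798627-132798777, which had no counterpart after MS67.
NKX6-1 promoter, WDR5: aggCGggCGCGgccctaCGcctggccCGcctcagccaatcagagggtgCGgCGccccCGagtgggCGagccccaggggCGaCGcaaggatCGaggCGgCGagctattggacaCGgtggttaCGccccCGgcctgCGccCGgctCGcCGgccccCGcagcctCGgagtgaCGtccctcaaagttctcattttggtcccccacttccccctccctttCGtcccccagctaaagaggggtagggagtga
NKX2-1 intron, SS18::SSX: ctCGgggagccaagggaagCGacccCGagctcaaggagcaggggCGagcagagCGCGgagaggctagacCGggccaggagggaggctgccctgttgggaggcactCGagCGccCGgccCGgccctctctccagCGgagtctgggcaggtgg
NKX2-2 upstream, SS18::SSX: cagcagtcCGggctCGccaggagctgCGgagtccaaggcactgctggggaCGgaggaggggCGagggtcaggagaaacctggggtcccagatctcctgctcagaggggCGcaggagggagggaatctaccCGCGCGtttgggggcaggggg
NKX2-4 gene body, SS18::SSX: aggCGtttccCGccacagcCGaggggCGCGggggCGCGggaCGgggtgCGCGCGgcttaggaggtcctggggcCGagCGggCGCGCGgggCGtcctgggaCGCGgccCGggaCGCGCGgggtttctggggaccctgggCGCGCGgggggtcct
NKX6-2 upstream, SS18::SSX with MS67: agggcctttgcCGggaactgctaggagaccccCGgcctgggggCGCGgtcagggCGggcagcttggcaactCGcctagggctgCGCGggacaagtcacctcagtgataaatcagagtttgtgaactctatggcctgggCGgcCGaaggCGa
NKX6-2 upstream, SS18::SSX with DMSO: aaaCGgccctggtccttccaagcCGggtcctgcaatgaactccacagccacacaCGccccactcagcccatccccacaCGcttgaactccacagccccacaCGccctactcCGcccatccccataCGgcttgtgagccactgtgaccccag
The *NKX2-4* stretch held 26 CG dinucleotides in 153 bp and the *NKX6-1* promoter stretch 25 in 246 bp. Of the stretches of 151 bp, that of *NKX2-1* held 12, that of *NKX2-2* 9, and those of *NKX6-2* 11 (MS67 peak) and 7 (DMSO peak).

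The peak lists held 15141 peaks for SS18::SSX with DMSO, 1175 for SS18::SSX with MS67, 35605 for WDR5 with DMSO, and 14123 for WDR5 with MS67. Read totals were not used here, so depth was recovered from each peak's fold and p-value, which together fix the number of fragments at the summit and the local background. For SS18::SSX the recovered coverage was 0.541 fragments per bp with DMSO and 0.737 with MS67, a ratio of 1.36, and it was 0.368 for WDR5 with DMSO and 0.168 with MS67, a ratio of 0.458. The shorter SS18::SSX list of MS67-treated cells was therefore the deeper library, whereas the shorter WDR5 list was the shallower one.

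In DMSO-treated cells, 8 of the 9 NKX genes (88.9%) had an SS18::SSX peak in the window, and the exception was *NKX2-5*. Over all protein-coding genes, 37.2% had one. The 9 windows held 40 SS18::SSX peaks with DMSO and 4 with MS67, and all 4 of the latter were at *NKX6-2* (11.1% of the NKX genes, against 4.53% of all genes). WDR5 was found in 8 of the 9 windows with DMSO (88.9%, against 79.3% of all genes), the exception being *NKX2-4*, and in 7 of the 9 with MS67 (77.8%, against 60.2%). The number of WDR5 peaks in the 9 windows was 25 with DMSO and 10 with MS67. With DMSO, the NKX share was 88.9% for both proteins. The SS18::SSX margin over all genes was the wider one because fewer of all genes had an SS18::SSX peak. The NKX windows had a median length of 43.2 kb and those of all genes 67.5 kb, so windows of equal length, 20 kb on either side of the gene start, were also compared. In these, the NKX shares were 88.9% and 11.1% for SS18::SSX with DMSO and MS67, against 29.1% and 3.25% of all genes. For WDR5 they were 88.9% and 77.8%, against 72.2% and 51.0%.

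**Figure D1:**
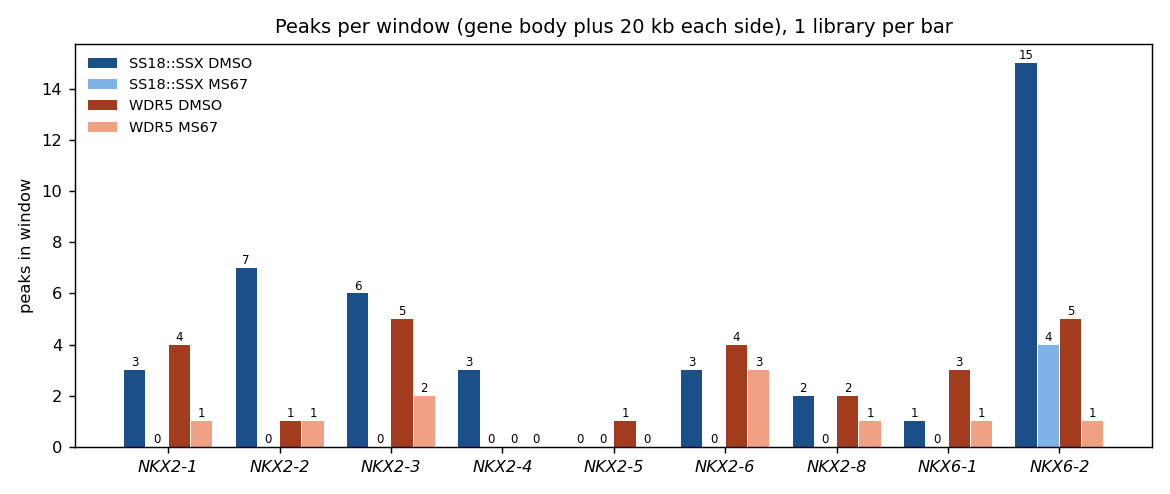
Number of peaks (y axis) in the window of each NKX gene (x axis), with 1 bar per library: SS18::SSX with DMSO (dark blue) or MS67 (light blue), and WDR5 with DMSO (dark red) or MS67 (light red). SS18::SSX bars with MS67 are at 0 for every gene but *NKX6-2*, which has 15 peaks with DMSO and 4 with MS67.

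The share of a window covered by peaks counts the bases within peaks, and gaps between the peaks of a split region are left out. The median NKX window was covered to 1.89% by SS18::SSX peaks with DMSO and to 2.28% by WDR5 peaks with DMSO, while the medians over all genes were 0% and 0.874%. For SS18::SSX with DMSO, *NKX6-2* was covered to 24.2%, the third-highest value of all 20007 genes. *NKX2-1* followed with 4.37%, *NKX2-2* with 3.99%, *NKX2-3* with 2.83%, and *NKX2-4* with 1.89%. The lowest were *NKX2-6* (1.65%), *NKX6-1* (1.13%), *NKX2-8* (0.861%), and *NKX2-5* (0%). For WDR5 with DMSO the order was another one, led by *NKX2-6* (4.61%), *NKX2-3* (4.39%), and *NKX6-2* (3.12%). *NKX2-8* (2.41%), *NKX2-1* (2.28%), *NKX6-1* (1.40%), and *NKX2-5* (1.06%) were in the middle, and *NKX2-2* (0.376%) and *NKX2-4* (0%) were last. Whether neighbours in either order differ could not be judged with 1 library each.

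**Figure D2:**
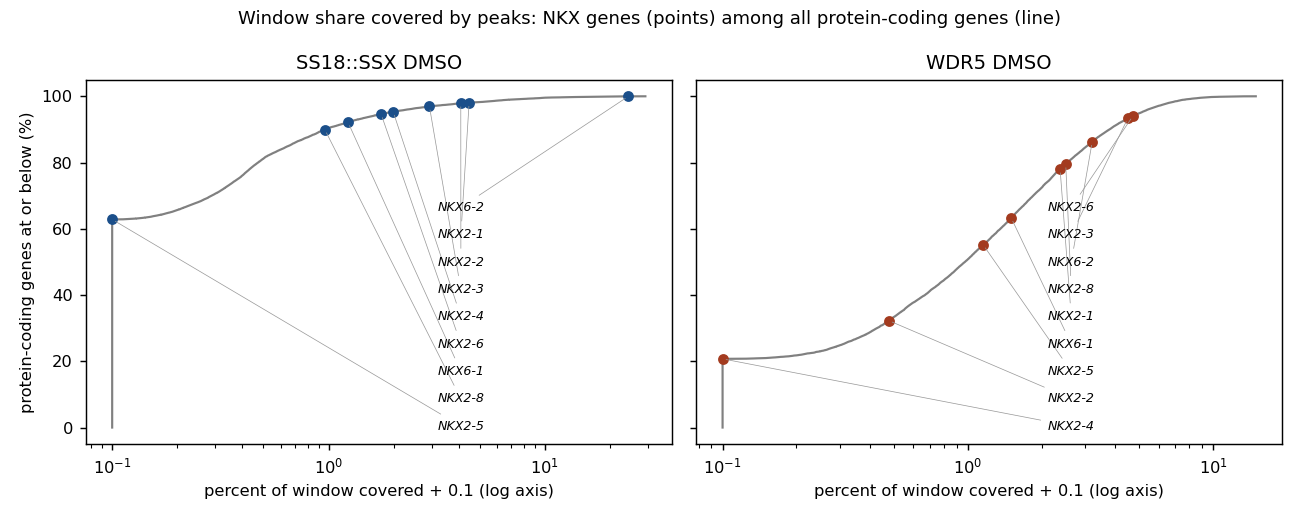
Share of protein-coding genes at or below a given covered share of the window (y axis, percent) against that share plus 0.1 (x axis, percent, log axis), for SS18::SSX (left) and WDR5 (right) with DMSO. The line is all 20007 genes and each point is an NKX gene. For SS18::SSX, *NKX6-2* sits at 24.2%, near the upper end of the line, and *NKX2-5* at 0%, and for WDR5 the points spread from *NKX2-4* at 0% to *NKX2-6* at 4.61%.

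At promoters the result depended on the definition. By the definition above, only *NKX2-6* had an SS18::SSX peak at its own promoter with DMSO (11.1% of the NKX genes, against 13.4% of all genes), and no NKX promoter had one with MS67 (0.720% of all genes). WDR5 peaks were at the promoters of *NKX2-6* and *NKX6-1* with DMSO (22.2%, against 43.0% of all genes) and at none with MS67 (27.7% of all genes). Of the 40 SS18::SSX peaks, 25 lay upstream of the gene, 6 in the gene body, and 9 downstream, and 14 had their centre within 5 kb of the gene start. By annotation, 21 were intergenic, 9 intronic, 6 exonic, and 4 at a promoter of any gene. Of the 25 WDR5 peaks with DMSO, 10 lay upstream, 6 in the gene body, and 9 downstream, and 7 were at a promoter of any gene. With the centre allowed within 1000 bp on either side of a start site, 4 genes had an SS18::SSX promoter peak with DMSO (*NKX2-4*, *NKX2-6*, *NKX2-8*, and *NKX6-1*), against 19.0% of all genes. By the same definition, 5 had a WDR5 peak with DMSO (*NKX2-1*, *NKX2-5*, *NKX2-6*, *NKX2-8*, and *NKX6-1*), against 56.1% of all genes, and 1 with MS67 (*NKX6-1*), against 39.1%.

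**Figure D3:**
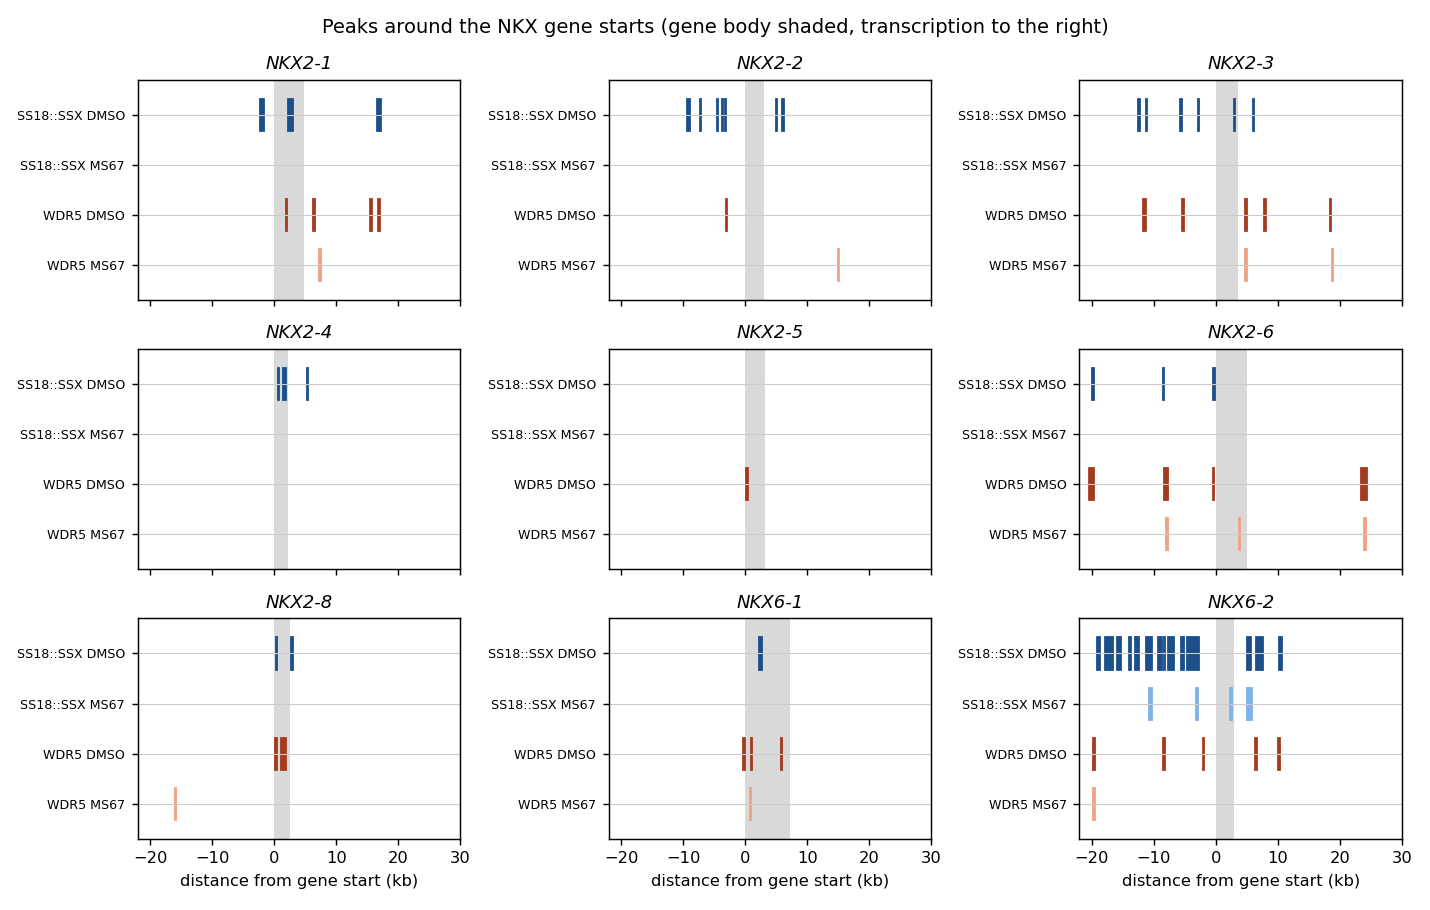
Position of each peak (bars, drawn to scale with an outline that keeps narrow peaks visible) relative to the start of each NKX gene (x axis, kb, transcription to the right), with 1 line per library and the gene body in grey. SS18::SSX peaks with DMSO lie mostly upstream of the gene at *NKX6-2* (12 of 15) and *NKX2-2* (5 of 7), and the line for SS18::SSX with MS67 is empty at the other genes than *NKX6-2*.

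*NKX6-2*, a regulator of ventral neural tube patterning and of myelination by oligodendrocytes, held 15 of the 40 SS18::SSX peaks. The gene lies at chr10:132783179-132786147 on the minus strand. Its 15 peaks covered 10404 bp of the 42969 bp window, with 12 upstream of the gene, 3 downstream in introns of *INPP5A*, and none in the gene body. Peaks reached −log10 q values from 2.58 to 18.9, with a median of 10.9, against a median of 3.68 over the whole list. Fold enrichments, which are ratios to the local background, were from 1.71 to 3.12, and that background was 30.2 to 90.0 times the genome-wide coverage at these summits (median 73.2). Over the whole list the median fold was 3.99 and the median background 5.72 times the genome-wide coverage. With MS67, the list held 4 peaks in the window, 3 of which overlapped a DMSO peak, and they covered 1732 bp or 4.03% of it, which was rank 13 among all genes. WDR5 had 5 peaks in the window with DMSO, from 19606 bp upstream to 10234 bp downstream of the gene start, and 1 with MS67 at 19658 bp upstream.

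**Figure D4:**
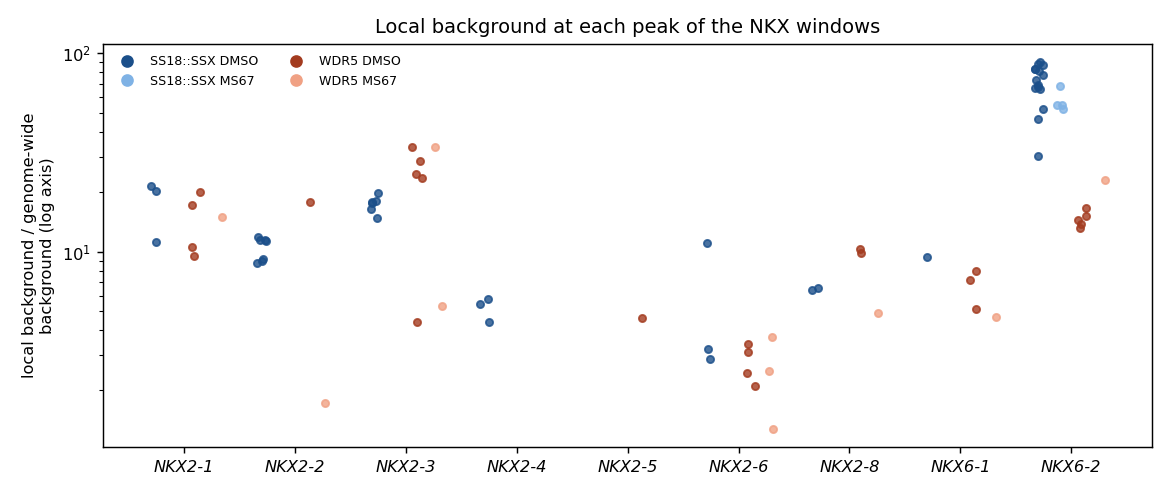
Local background at each peak summit divided by the genome-wide coverage of the same library (y axis, log axis), for the peaks of each NKX window (x axis) in the 4 libraries (colours). The *NKX6-2* points for SS18::SSX lie between 30.2 and 90.0 with DMSO and between 52.3 and 68.3 with MS67, above the SS18::SSX points of all other NKX genes.

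By the share of the window covered in the 4 libraries, the genes most like *NKX6-2* were *NFATC1*, *GPER1*, and *TPSAB1*. Likeness was the Euclidean distance of log2(percent covered + 0.1) over the 4 libraries and came to 0.342 for *NFATC1*, 0.732 for *GPER1*, and 0.935 for *TPSAB1*. SS18::SSX peaks with DMSO covered 19.5% of the *NFATC1* window, 23.9% of the *GPER1* window, and 15.6% of the *TPSAB1* window, and with MS67 they covered 4.35%, 4.44%, and 3.73%.

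*NKX2-2*, which specifies ventral neural progenitors, oligodendrocytes, and pancreatic islet cells, had 7 SS18::SSX peaks and 1 WDR5 peak with DMSO, and 1 WDR5 peak with MS67 at another position. The SS18::SSX peaks were 145 to 381 bp wide, where the list's median was 216 bp, with fold enrichments from 2.66 to 3.50. Each peak had a −log10 q below the list's median of 3.68, from 1.71 to 3.61. They lay on both sides of the gene (chr20:21511017-21514064), 5 upstream and 2 downstream, and none in the gene body. The 1 WDR5 peak with DMSO (−log10 q 1.83) overlapped the SS18::SSX peak 3114 bp upstream. In GENCODE the peak at chr20:21522968-21523348 lies 9094 bp upstream of *NKX2-2*, at the promoter of the noncoding gene ENSG00000289431. RefSeq places a further *NKX2-2* start 8625 bp upstream of the GENCODE one, at 21522689, and the centre of this peak is 469 bp upstream of it. By the RefSeq start sites, *NKX2-2* thus had an SS18::SSX promoter peak.

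*NKX2-1*, the lineage factor of thyroid, lung, and ventral forebrain, and its chromosome 14 neighbour *NKX2-8*, which acts in the ventral foregut and neural tube, differed in strength. *NKX2-1* had 3 SS18::SSX peaks with DMSO, at 1948 bp upstream, 2596 bp inside the gene, and 16896 bp downstream of its start. The intronic one, chr14:36518143-36518963, was 821 bp wide with 55 fragments at the summit, a fold enrichment of 4.44, and a −log10 q of 14.7, which was above 98.9% of the list. It lies at the promoter of the antisense gene *NKX2-1-AS1*, and a WDR5 peak lay 119 bp from it without overlap. WDR5 had 4 peaks at *NKX2-1* with DMSO and 1 with MS67, the latter at the promoter of *SFTA3*. *NKX2-8* had 2 SS18::SSX peaks (−log10 q 2.29 and 4.43) and 2 WDR5 peaks with DMSO (3.60 and 8.48). The stronger WDR5 peak was in an exon of *NKX2-8* and 812 bp wide, and the weaker one overlapped an SS18::SSX peak 408 bp inside the gene.

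*NKX2-4*, the closest relative of *NKX2-1*, was the only NKX gene here with SS18::SSX but no WDR5 peak in either treatment. Its 3 SS18::SSX peaks had −log10 q values of 2.03, 3.56, and 6.52, with the strongest in an exon of the gene. *NKX2-5*, the cardiac lineage factor, was the reverse, with no SS18::SSX peak and 1 WDR5 peak with DMSO, of 456 bp in an exon 318 bp from the gene start (−log10 q 3.66) and no WDR5 peak with MS67. *NKX2-3*, which acts in the mesenchyme of spleen and gut, had 6 SS18::SSX peaks with −log10 q from 2.29 to 5.39 and 5 WDR5 peaks from 3.16 to 6.82 with DMSO. None of its SS18::SSX peaks overlapped a WDR5 peak, although the nearest were 50 bp apart. Its WDR5 peaks lay on a local background of 24.6 times the genome-wide coverage at the median, the highest of the 9 genes for WDR5 with DMSO.

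*NKX6-1*, required for pancreatic beta cells and motor neurons, had a single SS18::SSX peak with DMSO. This peak, chr4:84496543-84497077, was 535 bp wide and lay 2482 bp inside the gene, with 30 fragments at the summit, a fold enrichment of 5.10, and a −log10 q of 9.51, above 94.8% of the list. WDR5 had 3 peaks with DMSO, among them the promoter peak printed above (fold 5.20, −log10 q 6.60, 18 fragments at the summit). After MS67 the promoter peak had no counterpart, and 1 WDR5 peak remained at 916 bp inside the gene, with 7 fragments at the summit and a −log10 q of 2.47.

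*NKX2-6*, expressed in the embryonic pharynx and cardiac outflow region, was the only gene whose SS18::SSX peaks all overlapped WDR5 peaks (3 of 3). Its promoter peaks with DMSO had a fold of 3.28 and a −log10 q of 3.50 for SS18::SSX, and a fold of 5.75 and a −log10 q of 5.65 for WDR5. *NKX2-6* also had the most WDR5 peaks with MS67 (3).

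Of the 40 SS18::SSX peaks with DMSO, 9 overlapped a WDR5 peak with DMSO by at least 1 bp (22.5%, 95% exact Clopper-Pearson interval 10.8 to 38.5), against 33.7% of the whole list. This and all intervals below cover counting error only. With peaks within 1 kb counted as shared, the number was 21 (52.5%, 36.1 to 68.5), against 54.9% of the whole list. From the WDR5 side, 9 of 25 peaks (36.0%, 18.0 to 57.5) overlapped an SS18::SSX peak, against 13.9% of the whole list. The overlapping peaks were at *NKX2-6* (3), *NKX6-2* (3), *NKX2-1* (1), *NKX2-2* (1), and *NKX2-8* (1), and at *NKX2-3*, *NKX2-4*, and *NKX6-1* there was none. Under the stricter standard that the study used to compare peak sets (−log10 q above 3, with a fold above 3 for SS18::SSX and above 6 for WDR5), the 9 windows held 13 SS18::SSX peaks and 1 WDR5 peak with DMSO. None of these 13 overlapped a WDR5 peak (0%, interval 0 to 24.7), against 8.60% of the whole list.

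With MS67, 37 of the 40 SS18::SSX peaks (92.5%, interval 79.6 to 98.4) had no overlapping SS18::SSX peak, and the share over the whole list was 94.2%. For WDR5, 19 of 25 peaks (76.0%, interval 54.9 to 90.6) had none, against 75.0% of the whole list. With the stricter standard applied to both treatments, 13 of 13 SS18::SSX peaks and the 1 WDR5 peak had no counterpart, against 96.6% and 83.4% of the whole lists. Part of this came from the fold cut on the MS67 lists. The 1 WDR5 peak (fold 7.39, in the *NKX2-6* window) overlapped an MS67 peak of fold 4.94. The *NKX6-2* peak of SS18::SSX (fold 3.12) overlapped an MS67 peak of fold 2.21. The loss from the lists at the NKX genes was thus near the level of all peaks for both proteins. The 3 SS18::SSX peaks that had a counterpart were all at *NKX6-2*, and at the other genes 25 of 25 peaks had none. The 6 WDR5 peaks with a counterpart were at *NKX2-6* (3), *NKX2-3* (1), *NKX6-1* (1), and *NKX6-2* (1).

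The kept *NKX6-2* peaks had −log10 q values of 13.2, 14.8, and 16.1 with DMSO, and the 37 others ranged from 1.71 to 18.9 with a median of 3.68. The groups overlapped: the peak with the highest value, 18.9 at 12729 bp upstream of *NKX6-2*, had no counterpart, and the nearest peak with MS67 was 1715 bp away. The overlapping peaks had their summits 437 to 597 bp apart in the 2 treatments, so their fragment numbers are not from the same positions. These numbers are also not scaled for coverage, which was 1.36 times as high with MS67 as with DMSO. The pair centred 5396 bp downstream of the *NKX6-2* start with DMSO had 90 fragments at its summit in each library, with a −log10 q of 14.8 with DMSO and 5.96 with MS67. The pair centred 3740 bp upstream had 114 fragments and a −log10 q of 16.1 with DMSO, and 98 fragments and 8.40 with MS67. The one centred 10805 bp upstream had 114 fragments and 13.2 with DMSO, and 93 fragments and 3.08 with MS67. For WDR5, the −log10 q values of kept and lost peaks overlapped, from 2.82 to 8.16 (median 3.95) and from 1.74 to 8.48 (median 5.02).

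**Figure D5:**
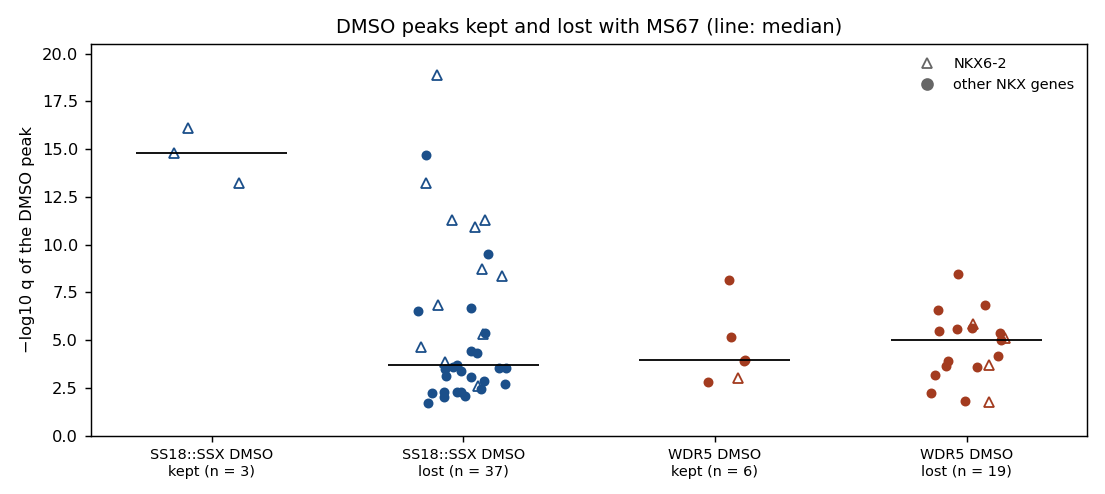
−log10 q with DMSO (y axis) of each peak of the NKX windows, split by protein and by whether a peak of the same protein overlapped it after MS67 (kept) or not (lost), with triangles for *NKX6-2*, circles for the other genes, and a line at the median. The 3 kept SS18::SSX peaks are triangles between 13.2 and 16.1, and the lost ones reach 18.9.

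Depth differed in opposite directions for the 2 proteins. The SS18::SSX library with MS67 had the higher coverage, so the shorter list did not go with a lower depth. For WDR5, the fragments and background of each lost peak were scaled to the lower coverage of the MS67 library. Of the 19 lost peaks, 11 (57.9%) would still have passed the smallest −log10 p of the MS67 list, 4.06 (53.0% over the whole list). The scaling allowed for no sampling error, so a loss of binding and the lower depth cannot be told apart for any single peak. A peak absent from a list is not evidence that the protein was absent from the site.

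Some peaks with MS67 overlapped no DMSO peak of the same protein. For SS18::SSX, 1 of 4 peaks (25.0%, interval 0.631 to 80.6) had no overlapping DMSO peak, against 26.9% of the whole list. It was at chr10:132783558-132783820, in an exon and untranslated region of *NKX6-2*, with a −log10 q of 5.57. For WDR5, 5 of 10 peaks (interval 18.7 to 81.3%) had none, against 35.6% of the whole list. These were at *NKX2-1*, *NKX2-2*, *NKX2-3*, *NKX2-6*, and *NKX2-8*, with −log10 q from 1.34 to 4.86 and 4 to 12 fragments at the summit.

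With DMSO, the peaks of the NKX windows had higher median GC content and CpG ratios than their whole lists, but not at every gene. Median GC content was 64.7% for their SS18::SSX peaks with DMSO, against 60.6% over the whole list, and 69.0% for their WDR5 peaks, against 58.5%. The ratio of observed to expected CpG, which corrects for GC content, had a median of 0.456 for SS18::SSX (whole list 0.356) and 0.741 for WDR5 (whole list 0.420). At *NKX6-2* the SS18::SSX peaks with DMSO had ratios from 0.188 to 0.564, most of them below the whole-list median. Without this gene the median for SS18::SSX was 0.675. For WDR5 with MS67 the median ratio was 0.473, below the 0.593 of the whole list. The median local background was 17.6 times the genome-wide coverage at the SS18::SSX peaks (whole list 5.72) and 11.2 times without *NKX6-2*. At the WDR5 peaks with DMSO it was 10.6 times (whole list 4.91). Median GC content and local background were thus higher at the NKX windows in both DMSO lists, and their part in the number of peaks was not tested.

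The RefSeq promoter sequences of hg38 searched for motifs, which span each start site, held 6 of the 9 genes with 8 promoters, and *NKX2-5*, *NKX2-6*, and *NKX6-2* were not among them. CCAAT, the NFY element, was found on either strand in 4 of the 8 promoters (34.6% of 35116 promoters), and GGGCGG, the SP/KLF element, in 5 of 8 (45.0%). The NKX2-type element TNAAGTG and the E-box CACGTG were in none of the 8, against 10.2% and 7.26% of all promoters. The *NKX6-1* stretch bound by WDR5 held CCAAT once on each strand. These are matches of letters and not shown to be sites.

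Other NKX genes also had SS18::SSX peaks in the window with DMSO. *NKX1-1* had 7 peaks over 7.23% of its window, *NKX3-2* had 4 over 2.38%, *NKX1-2* had 2 over 1.78%, and *NKX6-3* had 2 over 1.29%. For comparison, 34 of 39 *HOX* genes (87.2%) and 8 of 9 *PAX* genes (88.9%) had one, close to the 88.9% of the 9 NKX genes. At their own promoters, from 1000 bp upstream to 100 bp downstream, 13 of 39 *HOX* genes (33.3%) and 5 of 9 *PAX* genes (55.6%) had an SS18::SSX peak. By this definition 1 of 9 NKX genes and 13.4% of all genes did. With 1000 bp on either side 4 of 9 NKX genes did, and *HOX* and *PAX* genes were not compared that way. *HOX* genes share clustered windows, and the same peak can count for several of them. With counts this small and 1 library per condition, the difference at promoters was not tested.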

How the data were processed

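Reads were mapped by the authors to hg38 and mm10 (spike-in) in Bowtie2 v.2.4.4. Samtools v.1.10 removed nonprimary alignments, Picard v.2.18.2 removed PCR duplicates, and MACS2 v.2.2.6 called the peaks of each library. The options of the MACS2 run and any control library are not given in the sources used here. The study set a stricter standard on q-value and fold when it compared peak sets, and the deposited lists are not cut at it. For each peak the authors deposited a position, a fold enrichment (a ratio to the local background), and −log10 p and −log10 q. The deposited score is the whole part of 10 times −log10 q and was not used further.

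Gene positions were those of GENCODE 44. The members and gene lists were chosen with earlier results of these data known. The genes named were the 9 NKX genes, other NKX genes, genes whose promoter or body held a peak of a window, and the 3 genes most like the NKX gene with the most SS18::SSX peaks. *HOX* and *PAX* genes were given as counts. Results for some genes within this rule are not reported here. Peaks were shared when they overlapped by at least 1 bp. Pileup and background were solved from the fold and p-value of each peak, which fitted 100% of peaks to within 0.001 in −log10 p, and the lowest background of a list was taken as its genome-wide coverage. This step was tested on simulated data. For WDR5, pileup and background were also multiplied by the coverage ratio of the MS67 library to the DMSO library and the Poisson p-value was recomputed. Median pileup at the summit was 16 fragments for SS18::SSX with DMSO, 30 with MS67, 13 for WDR5 with DMSO, and 8 with MS67. With 1 library per condition, no test was made.

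Alternatives were other windows, peaks at that stricter standard (−log10 q above 3, with a fold above 3 in the SS18::SSX lists and above 6 in the WDR5 lists), merged peaks, other overlaps, other promoters, and leaving out *NKX6-2*. Spike-in–normalized signal and CUT&Tag were not analysed here. Computations were in Python (3.11.15), with pandas (2.3.3) and numpy (2.4.6) for tables, scipy (1.17.1) for intervals and Poisson tails, and matplotlib (3.10.9) for plots.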

Additional observations from a re-analysis of the deposited data

How the results depend on the processing

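Of 68 values computed under alternatives for 11 results, 20 moved, and direction was not scored. With windows of 10 kb on either side, WDR5 peaks with MS67 numbered 5, and with 50 kb, SS18::SSX peaks numbered 63 with DMSO and 7 with MS67, by construction of the window. With stricter peaks, the 9 windows held 13 SS18::SSX peaks with DMSO and 0 with MS67, and 1 WDR5 peak with either treatment. The shares lost were then 100% for both proteins, the overlap of SS18::SSX with WDR5 was 0%, and 0 genes had a WDR5 promoter peak with DMSO. The cut also removed overlapping MS67 peaks of low fold, which raised the shares lost. Only 1 of the 15 *NKX6-2* peaks of SS18::SSX with DMSO passed, because the others had a fold under 3. Without *NKX6-2*, SS18::SSX peaks numbered 25 with DMSO and 0 with MS67, and 100% were lost. With peaks within 1 kb counted as shared, the overlap was 52.5%. With the promoter extended to 1000 bp on either side, 4 genes had an SS18::SSX promoter peak with DMSO, 5 a WDR5 peak with DMSO, and 1 a WDR5 peak with MS67. For SS18::SSX with DMSO, the NKX share was below that of all genes (13.4%) by the main definition. By the extended one it was above that of all genes (19.0%). With at least 1 bp of the peak in the promoter, 2 genes had an SS18::SSX promoter peak with DMSO. With RefSeq start sites, 1 gene had a WDR5 promoter peak with DMSO, and since the table lacks *NKX2-6* this gene could not be counted. The RefSeq start sites and the equal windows of 20 kb on either side of the gene start were chosen after seeing the data. No paired analysis was possible because each condition had 1 library and the labels give no replicate numbers.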

Other observations

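*NKX6-2* lies 1.01 Mb from the end of its chromosome, and the genes that resembled it are also near an end, *NFATC1* at 0.844 Mb, *GPER1* at 1.08 Mb, and *TPSAB1* at 1.24 Mb. *NKX1-1*, the NKX gene with the next-highest SS18::SSX coverage, lies at 1.40 Mb, and the other 8 genes of the report lie from 8.30 to 84.5 Mb away. A limit of 1.5 Mb was chosen after these values were seen. Within it, 705 of 1021 protein-coding genes (69.0%) had an SS18::SSX peak in the window with DMSO and the mean covered share was 2.64%, and farther away 6732 of 18986 genes (35.5%) had one and the mean was 0.281%. Windows covered to more than 10% numbered 63 near chromosome ends and 21 elsewhere. For WDR5 with DMSO, 88.1% of genes near chromosome ends and 78.8% of the others had a peak. These values describe 1 library each, neighbouring windows share peaks, and the cause was not tested.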
